A study of Mus musculus with 9 samples.

Results

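The cardiac myosin heavy and light chain genes are 7 of the 19933 genes that could be named and measured on the arrays. They are the heavy chain genes Myh6 and Myh7, the light chain genes Myl2, Myl3, Myl4 and Myl7, and Mybpc3, which encodes cardiac myosin binding protein C. The genes were taken by name, and each had 1 probe that the platform annotation gives to it alone. Their RNA was measured on Affymetrix mouse Gene 1.0 ST arrays in 3 preparations of mouse heart cells, with 3 biological replicates each. The first holds cardiomyocytes of the embryo, taken as Nkx-YFP+ cells, in which a fluorescent reporter is named after Nkx genes of the heart lineage. The second and the third hold cardiac fibroblasts, of the embryo and of the adult. The series was made to look for products of fibroblasts that act on the proliferation of myocytes. The sources used here state no strain, embryonic stage, adult age, way of isolating the fibroblasts, time in culture or pooling of animals.

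Cardiac myosin is the motor of the heart's thick filaments. Each heavy chain carries an ATPase head and binds an essential and a regulatory light chain at its neck, and myosin binding protein C ties the heads to the filament and to actin. The isoforms mark chamber and age. Myh7 encodes the slow beta heavy chain of the embryonic mouse ventricle, and Myh6 encodes the fast alpha chain, which is the chain of the atria and, after birth, of the mouse ventricle. Myl2 and Myl3 encode the ventricular regulatory and essential light chains, and Myl7 and Myl4 their atrial counterparts, which the early heart also makes more widely.

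Every one of the 7 genes was highest on the cardiomyocyte arrays, lower on the embryonic fibroblast arrays and lowest on the adult fibroblast arrays. In all 7 the 3 groups did not overlap in this order, an order that 7.7% of all genes showed. By single comparison, 19.8% of all genes were lower without overlap in embryonic fibroblasts than in cardiomyocytes, 16.1% were higher in embryonic than in adult fibroblasts, and 21.7% were lower in adult fibroblasts than in cardiomyocytes. Embryonic fibroblasts were lower than cardiomyocytes by 1.16 to 1.69 on the log2 scale in 6 genes, while Myl2 differed by -0.30 and did not pass the test. Adult fibroblasts were lower than cardiomyocytes in all 7 genes, by measured folds of 8.49 to 45.8. These folds are uncertain where the adult values lay near or below the median of all probes. The values are RMA values on a log2 scale, and each fold is a fold between such values. Differences were tested with limma over all genes and called at a Benjamini-Hochberg adjusted p under 0.05.

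**Figure D1:**
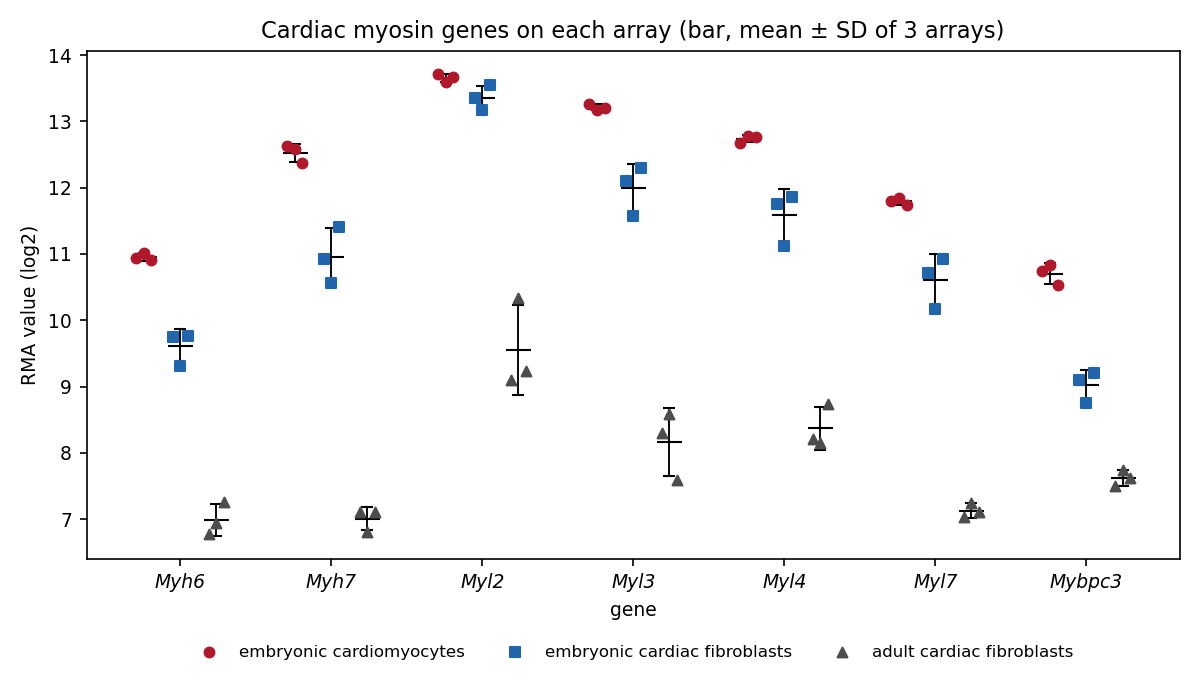
RMA values (log2, vertical axis) of the 7 cardiac myosin genes on each of the 9 arrays, with the mean and SD of the 3 arrays of a group as black bars. Cardiomyocyte arrays (circles) lie above embryonic fibroblast arrays (squares), and these above adult fibroblast arrays (triangles), in every gene; the gap between circles and squares is narrowest in Myl2.

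The arrays were checked against the labelled cell types with marker genes. Of all genes, 11.1% were called lower in embryonic and 18.2% in adult fibroblasts, each against cardiomyocytes. In embryonic fibroblasts 11.2% were called higher than in adult fibroblasts, and 2054 of 19933 genes higher than in cardiomyocytes. In adult fibroblasts 2821 to 3846 genes were called higher than in cardiomyocytes on leaving out each array in turn. The mean RMA value of 15 other cardiomyocyte markers was 11.79 to 11.95 on the cardiomyocyte arrays, 10.59 to 11.14 on the embryonic fibroblast arrays and 8.43 to 8.78 on the adult fibroblast arrays. Of these markers 11 were lower in embryonic and 14 in adult fibroblasts, each against cardiomyocytes. The mean of 12 fibroblast markers ran the other way, at 8.36 to 8.59, 9.69 to 9.94 and 10.50 to 10.74, and all 12 were higher in either fibroblast group than in cardiomyocytes. Markers of other cells moved with the groups as well. Of 5 erythroid markers 3 were called lower on going from cardiomyocytes to embryonic fibroblasts, and the same 3 on going from embryonic to adult fibroblasts. These were the embryonic globin genes Hbb-y (12.76, 11.32 and 6.52 in the 3 groups), Hba-x (10.55, 8.82 and 7.58) and Hbb-bh1 (7.50, 6.34 and 5.93), whose call between the fibroblast groups was lost under 7 of its 16 alternatives. The mean of the 5 was 9.19 to 9.43, 8.45 to 8.46 and 7.07 to 7.20. Of 7 macrophage markers 6 were higher in embryonic and 7 in adult fibroblasts against cardiomyocytes, with a mean of 7.65 to 7.76, 8.46 to 9.03 and 9.10 to 9.95. The embryonic fibroblast arrays carried signal of cardiomyocyte markers, and the part of any of these shifts in the results on the myosin genes was not tested. RMA values have no true 0, and no marker can be called absent from them. The probe of Nkx2-5 did not separate the groups (8.30 ± 0.13, 8.25 ± 0.08 and 8.23 ± 0.15, SD, n = 3). In RNA from whole preparations, fewer myocytes and less RNA per cell cannot be told apart. Adult fibroblast replicate 3 stood apart, with a limma array weight of 0.215 where the other 8 arrays had 0.620 to 1.92.

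The heavy chains come first. Myh7 stood at 12.63, 12.58 and 12.37 in cardiomyocytes, at 10.92, 10.55 and 11.41 in embryonic fibroblasts and at 7.11, 6.81 and 7.11 in adult fibroblasts (replicates 1 to 3). The adult values lay below the median of all probes, which was 7.60 to 7.65 on the arrays. No deposited value tells whether a probe at that level is above background, so folds against adult fibroblasts are uncertain for Myh6, Myh7 and Myl7 and are not ranked here. Myh7 was 2.96-fold lower in embryonic fibroblasts than in cardiomyocytes (log2 difference -1.56 ± 0.19, SE, limma adjusted p = 0.000578) and 15.5-fold higher than in adult fibroblasts (3.95 ± 0.19, adjusted p = 1.97e-06). The log2 difference of adult fibroblasts from cardiomyocytes was -5.52 ± 0.19 (adjusted p = 1.77e-07).

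Myh6 had values of 10.94, 11.02 and 10.91 in cardiomyocytes, 9.74, 9.31 and 9.77 in embryonic fibroblasts and 6.78, 6.94 and 7.26 in adult fibroblasts. Its groups did not overlap either. Embryonic fibroblasts were 2.55-fold below cardiomyocytes (-1.35 ± 0.15, adjusted p = 0.000369) and 6.12-fold above adult fibroblasts (2.61 ± 0.15, adjusted p = 4.37e-06). Adult fibroblasts were 15.6-fold below cardiomyocytes (-3.96 ± 0.15, adjusted p = 2.12e-07). Myh6 and Myh7 are near-identical paralogs that lie next to each other, and how far a probe of either gene reads RNA of the other was not tested, so the separate values are uncertain to that degree.

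The promoters of the heavy chain pair are shown because these genes moved together across the groups. The stretches are the 250 bases before a RefSeq start (GRCm38.p6), on the minus strand at chr14:54966608-54966857 for Myh6 and at chr14:54994627-54994876 for Myh7, where the upstream of 2 listed starts was taken. The stretch before the other Myh7 start, at chr14:54994550-54994799, held no match of any motif searched. Capitals mark matches of the motif CATTCC, the MCAT element bound by TEAD factors, and in Myh7 also of TNAAGTG, the Nkx2-5 element, on either strand.
Myh6: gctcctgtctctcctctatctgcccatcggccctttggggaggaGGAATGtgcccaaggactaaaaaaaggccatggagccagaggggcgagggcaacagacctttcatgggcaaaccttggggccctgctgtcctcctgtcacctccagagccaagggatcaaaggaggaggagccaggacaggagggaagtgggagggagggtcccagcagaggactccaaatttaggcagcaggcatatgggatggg
Myh7: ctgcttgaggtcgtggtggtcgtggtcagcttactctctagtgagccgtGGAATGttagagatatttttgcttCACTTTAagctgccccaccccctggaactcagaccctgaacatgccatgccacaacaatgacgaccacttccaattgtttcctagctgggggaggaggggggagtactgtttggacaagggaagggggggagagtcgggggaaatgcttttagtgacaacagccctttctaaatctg
Each stretch shown held a CATTCC match on the reverse strand, 206 to 201 bases before the start in Myh6 and 201 to 196 bases before it in Myh7. Of all 32851 promoter stretches of this length, 12.6% held this motif and 10.1% held TNAAGTG. A match describes the letters only, and no binding was measured here.

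Each of the heavy chain genes also hosts a microRNA, and so does the related Myh7b. The mature sequences are given because the microRNAs are read from inside the genes whose levels differed. Capitals mark the seed (bases 2 to 8).
mmu-miR-208a-3p: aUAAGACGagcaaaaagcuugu
mmu-miR-208b-3p: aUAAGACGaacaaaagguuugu
mmu-miR-499-5p: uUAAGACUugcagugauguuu
In RefSeq (GRCm38.p6) they lie within Myh6, Myh7 and Myh7b, in this order, on the strand of the host. The seed of the pair in Myh6 and Myh7 is UAAGACG, and that of miR-499-5p is UAAGACU. Whether the array's probes for Mir208a and Mir499 read mature microRNA, its precursor or RNA of the host gene was not tested. The probe for Mir208a stood at 5.64 to 5.90 in cardiomyocytes, 5.05 to 5.34 in embryonic fibroblasts and 4.93 to 5.49 in adult fibroblasts. Against cardiomyocytes it was lower in either fibroblast group, embryonic first (-0.52 ± 0.15 and -0.48 ± 0.15, limma adjusted p = 0.0340 and 0.0323). These values lay below the median of all probes. Both calls were lost without any of the cardiomyocyte arrays (adjusted p = 0.0660 to 0.127 and 0.0552 to 0.121). The first call was also lost without embryonic fibroblast replicate 1 or 2 (0.129 and 0.0824), and the second without adult fibroblast replicate 2 (0.0834) or with only those groups fitted (0.0620). The probe for Mir499 did not pass in any comparison (adjusted p = 0.159 to 0.675), apart from a lower value in embryonic than adult fibroblasts without cardiomyocyte replicate 1 (adjusted p = 0.0334), and Mir208b is named only. These microRNA genes were chosen after their values were seen.

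Of the regulatory light chain genes, ventricular Myl2 was the member that did not pass between the embryonic groups. It stood at 13.71, 13.59 and 13.67 in cardiomyocytes and at 13.35, 13.17 and 13.54 in embryonic fibroblasts. The groups did not overlap, yet the difference was -0.30 ± 0.27 with a 95% interval from -0.92 to 0.32 (limma adjusted p = 0.537). This interval overlaps those of Myl3, Myl4 and Myl7. Overlap is no test of a difference between genes, and a difference of Myl2 from these genes is not shown. Myl7 minus Myl2 on the same array, given below, did not overlap between the embryonic groups, but its test over the 3 groups did not pass. The fit takes 1 spread for the 3 groups, and the adult values of 9.09, 10.33 and 9.24 were the most scattered of any member (SD 0.68, against 0.06 in cardiomyocytes). With the embryonic groups alone the adjusted p was 0.0681, and without adult replicate 2 it was 0.0795. In adult fibroblasts Myl2 was 13.9-fold below the embryonic fibroblasts (log2 difference of embryonic from adult 3.80 ± 0.27, adjusted p = 1.76e-05).

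Myl2 lay near the top of the scale. In cardiomyocytes only 3 of 19933 genes had a higher mean than Myl2, and the highest value in the whole table was 14.20. The markers Tnnt2 and Actc1, also above 13.7 on average in cardiomyocytes, did not pass between the embryonic groups either (-0.44 ± 0.27 and -0.34 ± 0.20, adjusted p = 0.329 and 0.298). Other bright genes did: Myl3, at 13.21 in cardiomyocytes with 20 genes above it, and the troponin genes Tnnc1, at 13.42, and Tnni3, at 13.02, were lower by called differences of -1.22, -0.78 and -1.02. The Tnnc1 call (adjusted p = 0.0447) was lost under 8 of 17 alternatives. Whether the top of the measuring range narrowed the differences of Myl2, Tnnt2 and Actc1 was not tested. Tnnt2 and Actc1 passed with the embryonic groups alone (adjusted p = 0.00539 and 0.0357) and without adult replicate 2 (adjusted p = 0.00580 and 0.0362), where Myl2 did not.

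The atrial regulatory light chain gene Myl7 stood at 11.80, 11.85 and 11.73 in cardiomyocytes, 10.72, 10.18 and 10.93 in embryonic fibroblasts and 7.03, 7.25 and 7.11 in adult fibroblasts. No group reached another. Embryonic fibroblasts were 2.27-fold below cardiomyocytes (-1.19 ± 0.17, limma adjusted p = 0.00112) and 11.2-fold above adult fibroblasts (3.48 ± 0.17, adjusted p = 1.83e-06). Its adult values had an SD of 0.11, among the smallest of the members, where Myl2 had the largest.

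The ventricular essential light chain gene Myl3 stood at 13.26, 13.18 and 13.20 in cardiomyocytes, 12.09, 11.58 and 12.30 in embryonic fibroblasts and 8.30, 8.58 and 7.59 in adult fibroblasts. The groups did not overlap, and embryonic fibroblasts were 2.34-fold below cardiomyocytes (-1.22 ± 0.25, limma adjusted p = 0.00698). Adult fibroblasts were 33.3-fold below cardiomyocytes (-5.06 ± 0.25, adjusted p = 6.60e-07). The atrial essential light chain gene Myl4 had values of 12.68, 12.78 and 12.77, of 11.75, 11.12 and 11.86, and of 8.21, 8.15 and 8.74 in the same order. Its embryonic fibroblast value was 2.23-fold below that of cardiomyocytes (-1.16 ± 0.21, adjusted p = 0.00357), and adult fibroblasts were 20.7-fold below (-4.37 ± 0.21, adjusted p = 5.29e-07). In adult replicate 3 Myl3 was at its lowest and Myl4 at its highest among the adult arrays. The Myl3 value on that array, 7.588, lay below the median of its probes, 7.649. The fold of Myl3 against adult fibroblasts is uncertain to that degree.

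The promoters of an atrial and a ventricular light chain gene are shown because each holds a CArG box, the element bound by serum response factor in muscle genes. The 250 bases before the RefSeq start (GRCm38.p6) lie at chr11:5898783-5899032 on the minus strand for Myl7 and at chr9:110763428-110763677 on the plus strand for Myl3. Capitals mark matches of the CArG box, CATTCC and GATAA, the core of GATA sites, on either strand.
Myl7: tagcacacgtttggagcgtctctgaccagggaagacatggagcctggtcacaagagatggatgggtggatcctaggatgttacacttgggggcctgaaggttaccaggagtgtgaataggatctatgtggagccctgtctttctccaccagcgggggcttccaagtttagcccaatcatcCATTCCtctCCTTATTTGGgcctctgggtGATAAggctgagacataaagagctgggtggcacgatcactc
Myl3: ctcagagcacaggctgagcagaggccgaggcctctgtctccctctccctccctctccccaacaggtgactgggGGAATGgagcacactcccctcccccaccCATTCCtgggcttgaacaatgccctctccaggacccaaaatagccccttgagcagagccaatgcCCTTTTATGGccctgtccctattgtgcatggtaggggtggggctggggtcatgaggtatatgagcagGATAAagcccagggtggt
The CArG box lay 61 to 52 bases before the start in Myl7 and 85 to 76 bases before it in Myl3. Its pattern matched on both strands, though the letters of each box differ between the strands. It was found in 1.47% of all promoter stretches, GATAA in 22.6%.

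Mybpc3 stood at 10.74, 10.83 and 10.53 in cardiomyocytes, 9.10, 8.75 and 9.20 in embryonic fibroblasts and 7.49, 7.74 and 7.62 in adult fibroblasts. It differed most between the embryonic groups and least between the fibroblast groups. Embryonic fibroblasts were 3.22-fold below cardiomyocytes (-1.69 ± 0.13, limma adjusted p = 7.32e-05) and 2.64-fold above adult fibroblasts (1.40 ± 0.13, adjusted p = 9.38e-05). The log2 difference of adult fibroblasts from cardiomyocytes was -3.09 ± 0.13 (adjusted p = 3.15e-07), and the adult values were near the median of all probes. Its folds against adult fibroblasts, and its place among the members in them, are therefore uncertain. Its promoter is shown for a MEF2 site, bound by a family of muscle transcription factors, which 2.92% of all stretches held. The stretch lies at chr2:91117894-91118143 (GRCm38.p6, plus strand), and capitals mark the MEF2 site, 90 to 81 bases before the start, and a GATAA match, 60 to 56 bases before it.
Mybpc3: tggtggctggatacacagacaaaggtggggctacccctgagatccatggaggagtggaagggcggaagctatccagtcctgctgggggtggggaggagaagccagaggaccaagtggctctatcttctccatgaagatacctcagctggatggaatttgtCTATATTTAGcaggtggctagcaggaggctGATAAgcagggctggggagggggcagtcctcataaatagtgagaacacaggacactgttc
Over the 9 stretches listed for the 7 genes, CATTCC was found in 4, GATAA in 4, the CArG box in 2, and the MEF2 site, TNAAGTG and TATAAA in 1 each. The sequence TATAAA was found in 12.4% of all stretches. Matches of different motifs did not overlap in these stretches.

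Taken by comparison, 6 of the 7 genes were called lower in embryonic fibroblasts than in cardiomyocytes, where 11.1% of all genes were. The median log2 difference of the 7 was -1.22, against -0.0003 over all genes. All 7 were called higher in embryonic than in adult fibroblasts, as 11.2% of all genes were, with a median of 3.48 against -0.04. All 7 were called lower in adult fibroblasts than in cardiomyocytes, as 18.2% of all genes were, with a median of -4.37 against 0.06. The first and second comparisons share the embryonic fibroblast arrays and each pair of comparisons shares a group, so they are not independent. No member changed its call under any of 17 alternative settings, including each array left out in turn. Each member had 1 probe, so the setting that averages a gene's probes could not change its values.

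**Figure D2:**
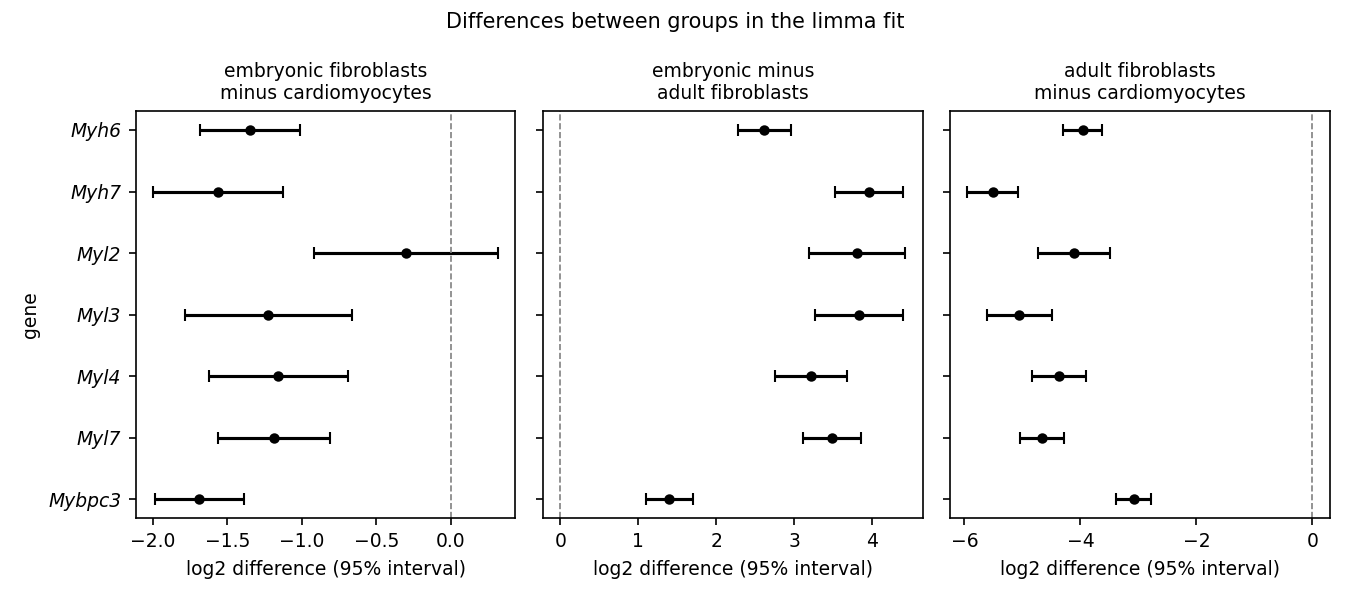
Log2 differences (horizontal axis) between the groups for each of the 7 genes, as points with their 95% intervals from the limma fit. The interval of Myl2 between the embryonic groups, from -0.92 to 0.32, is the only one that includes 0, and the differences of adult fibroblasts from cardiomyocytes run from -3.09 (Mybpc3) to -5.52 (Myh7).

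How far the embryonic fibroblasts stood between the other groups is described for each member. At the adult end Myh6, Myh7 and Myl7 lay below the median of all probes, and Mybpc3 lay near it. Myl2 lay near the top of the scale in cardiomyocytes, so the positions are uncertain. On the log2 span from adult fibroblasts to cardiomyocytes, the embryonic fibroblast mean lay at 92.6% for Myl2, at 71.6% to 75.8% for Myh7, Myl3, Myl4 and Myl7, at 66.0% for Myh6 and at 45.3% for Mybpc3. On the linear scale the embryonic fibroblast value was 31.1% of the cardiomyocyte value for Mybpc3, 33.8% for Myh7, 39.3% for Myh6, 42.8% to 44.8% for the light chains other than Myl2, and 81.1% for Myl2. Leaving out Myl2, the 95% intervals of the members' log2 differences between the embryonic groups all overlapped one another, and the members' differences were not tested against each other.

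The embryonic fibroblast arrays were the more variable of the embryonic groups, with an SD of 0.18 to 0.43 for the members against 0.04 to 0.15 in cardiomyocytes. In all 7 genes embryonic fibroblast replicate 2 was lowest and replicate 3 highest, an order found in 14.6% of all genes. The same order was found in 12 of the 15 other cardiomyocyte markers and 6 of 7 macrophage markers, in 2 of 12 fibroblast markers and in 0 of 8 endothelial markers. Between the adult arrays no such order was shared: replicate 2 was highest in 4 of the 7 genes and replicate 3 in 3. The part of the makeup of the preparations in these orders was not tested.

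Whether isoforms of the same role changed unequally was asked with the difference of their RMA values on the same array, in 3 pairs. Myh6 minus Myh7 was -1.68, -1.56 and -1.47 in cardiomyocytes, -1.17, -1.25 and -1.64 in embryonic fibroblasts and -0.33, 0.13 and 0.15 in adult fibroblasts. The adult arrays lay above all embryonic arrays, and the embryonic groups overlapped. The groups differed in an exact permutation test over the 9 arrays (two-sided, p = 0.0107, adjusted p = 0.0321 over the 3 pairs, the smallest p possible being 0.00357). In adult fibroblasts both probes had means, 6.99 for Myh6 and 7.01 for Myh7, below the median of all probes and close to that of the skeletal muscle regulator Myog (6.92), which was called in no comparison. Neither is shown to be above background there, so the test gives no order of the falls of the RNAs from cardiomyocytes to adult fibroblasts. Between the embryonic groups, where both lay above the median, the ranges overlapped (-1.57 ± 0.11 and -1.35 ± 0.25, SD, n = 3).

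Atrial minus ventricular light chain values were less clear. Myl7 minus Myl2 was -1.91, -1.74 and -1.94 in cardiomyocytes, -2.63, -3.00 and -2.61 in embryonic fibroblasts and -2.06, -3.08 and -2.13 in adult fibroblasts. The cardiomyocyte arrays lay above all others, by 0.88 on average over embryonic fibroblasts, but the pair did not pass (exact permutation p = 0.0786, adjusted p = 0.118). Without adult replicate 2 the p was 0.00357, the smallest possible. Myl4 minus Myl3 was -0.58, -0.40 and -0.44 in cardiomyocytes, -0.34, -0.45 and -0.43 in embryonic fibroblasts and -0.09, -0.44 and 1.16 in adult fibroblasts. These groups overlapped and the pair did not pass (exact permutation p = 0.129, adjusted p = 0.129). The gap of 0.68 between adult fibroblasts and cardiomyocytes in Myl4 minus Myl3 fell to 0.21 without adult replicate 3. Without adult replicate 2 it was 1.01, and the test over the 3 groups gave an exact permutation p of 0.0179.

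**Figure D3:**
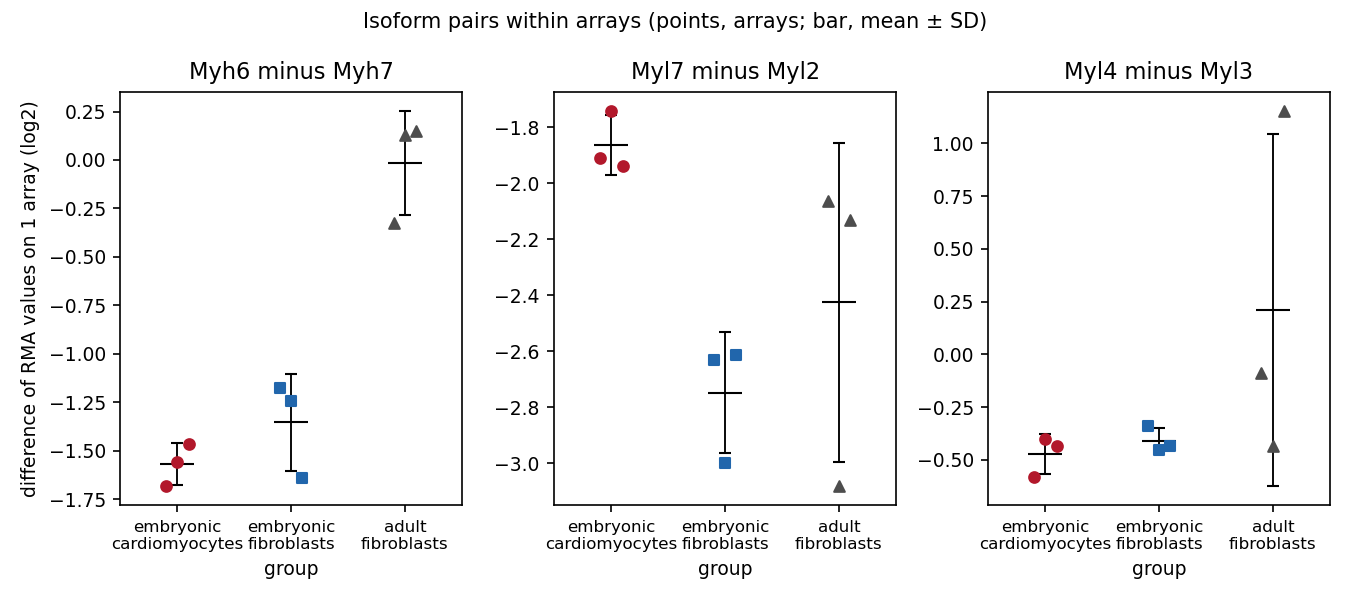
Difference of the RMA values of 2 isoforms on the same array (log2, vertical axis), for each array as a point and as mean ± SD of 3 arrays per group. For Myh6 minus Myh7 the adult fibroblast arrays, at -0.33 to 0.15, lie above all embryonic arrays, at -1.68 to -1.17; in the light chain pairs the adult arrays scatter widely.

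Chamber genes other than the members were set beside these isoforms. Of all genes, 11.1% were called lower and 2054 of 19933 higher in embryonic fibroblasts than in cardiomyocytes. Called lower in adult fibroblasts were 18.2% against cardiomyocytes and 11.2% against embryonic fibroblasts. Of 15 atrial genes 6 were lower and 1 was higher in embryonic fibroblasts than in cardiomyocytes, with a median difference of -0.24. The largest falls of this list were those of Bmp10, a trabecular and atrial growth factor (-2.31 ± 0.20), and the connexin gene Gja5 (-2.05 ± 0.14). Next came the atrial peptide gene Nppa (-1.82 ± 0.25) and the transcription factor gene Tbx5 (-1.31). The higher one was Nr2f2, a regulator of atrial identity that is also made by venous endothelium (0.81, limma adjusted p = 0.000963). All 8 endothelial markers were higher in this comparison as well, with a mean level of 9.77 to 10.23 against 8.53 to 8.97. The part of endothelial cells in the Nr2f2 value was not tested. The remaining atrial genes were called in neither direction here, and the chamber origin of the cells was not tested. Of 15 ventricular genes 10 were lower and 0 higher, with a median of -1.04, led by Hey2, a repressor of atrial genes in the ventricle (-2.39 ± 0.29), the calcium pump inhibitor gene Pln (-1.78) and Gpx3 (-1.52). In adult fibroblasts 7 atrial and 13 ventricular genes were lower than in cardiomyocytes and 0 were higher. From embryonic to adult fibroblasts 4 atrial and 7 ventricular genes were lower, among them Nppa (2.83 between embryonic and adult) and Smpx (4.40).

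The remaining sarcomeric heavy chains include those of skeletal, embryonic and extraocular muscle. Of all genes, 11.1% were called lower in embryonic and 18.2% in adult fibroblasts, each against cardiomyocytes, and 11.2% higher in embryonic than adult fibroblasts. Near or below these shares, only Myh7b, a slow myosin gene, was called of the 8 remaining heavy chains. It stood at 8.38, 8.49 and 8.35 in cardiomyocytes, at 7.67 to 7.88 in embryonic fibroblasts and at 7.63 to 7.77 in adult fibroblasts (-0.60 ± 0.09 between the embryonic groups, limma adjusted p = 0.00129). The median difference of the 8 was -0.06 for embryonic and -0.008 for adult fibroblasts against cardiomyocytes. Apart from Myh7b, their group means ran from 5.31 (Myh15) to 7.525 (Myh8), below the median of all probes. These genes are not shown to be above background, so small differences do not show equal levels. Of 6 skeletal light chain and binding protein genes, Mylpf, the fast skeletal regulatory light chain, was called lower in embryonic fibroblasts (-0.63), and Mylpf and Mybpc1 in adult fibroblasts (-0.78 and -0.26). The Mybpc1 call was lost under 10 of 17 alternatives. Of 10 skeletal muscle markers, 3 were lower in embryonic and the same 3 in adult fibroblasts, each against cardiomyocytes, and none was higher. They were the fast troponin gene Tnni2 (-1.20 and -1.82), the skeletal actin gene Acta1 (-0.64 and -1.36) and the creatine kinase gene Ckm (-0.69 and -0.73). Tnni2 and Acta1 were also higher in embryonic than in adult fibroblasts. The other 7, among them the regulators Myod1, Myog, Myf5, Myf6 and Pax7, were called in no comparison.

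Of 9 myosin genes of nonmuscle and smooth muscle cells, Myl9 alone showed the cardiac members' order of groups without overlap. By group means Myh10, Myl6 and Myl12a had that order too, with differences of -0.13, -0.04 and -0.04 between the embryonic groups that did not pass. Of the 9 genes 1 rose and 1 fell from cardiomyocytes to embryonic fibroblasts, near the shares of all genes (2054 of 19933 called higher and 11.1% lower). From cardiomyocytes to adult fibroblasts 2 rose and 4 fell, where 18.2% of all genes were called lower. On leaving out each array in turn, 2821 to 3846 of 19933 genes were called higher there. Myl9, a regulatory light chain of smooth muscle and nonmuscle myosin, was at 12.37, 12.27 and 12.21 in cardiomyocytes, 10.87, 10.40 and 11.02 in embryonic fibroblasts and 8.87, 9.41 and 7.76 in adult fibroblasts. The fall between the embryonic groups (-1.52 ± 0.35, limma adjusted p = 0.0126) was lost without cardiomyocyte replicate 1 (adjusted p = 0.0506) or embryonic fibroblast replicate 2 (adjusted p = 0.0565). Myh9, the main nonmuscle heavy chain of motile cells, was higher in embryonic fibroblasts than in cardiomyocytes (9.99 ± 0.43 against 8.86 ± 0.14, SD, n = 3, limma adjusted p = 0.00395). Its rise in adult fibroblasts (0.78, adjusted p = 0.0149) was lost without cardiomyocyte replicate 2 or adult replicate 2 (adjusted p = 0.0598 and 0.0554).

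Myh10, a nonmuscle heavy chain of embryonic tissue, separated the embryonic from the adult arrays. It stood at 9.24 ± 0.19 in adult fibroblasts, against 11.05 ± 0.07 in cardiomyocytes and 10.93 ± 0.06 in fibroblasts of the embryo (SD, n = 3). The embryonic groups did not pass (-0.13 ± 0.10, adjusted p = 0.473), and embryonic fibroblasts were 3.22-fold above adult ones (limma adjusted p = 6.47e-06). Myh11, the smooth muscle heavy chain, was at 7.33 to 7.68 on the 6 embryonic arrays and at up to 9.15 in adult fibroblasts, where replicate 3, at 7.72, was close to the embryonic arrays. Its call against embryonic fibroblasts (adjusted p = 0.0488) was lost on leaving out any of the 8 arrays other than adult replicate 3, with adjusted p up to 0.148. Its call against cardiomyocytes (1.20, adjusted p = 0.0141) was lost without cardiomyocyte replicate 1 or 2 or adult replicate 1 (adjusted p = 0.0503, 0.0512 and 0.0518). The shared light chain gene Myl6 was at 12.48, 12.42 and 10.95 in adult fibroblasts, and its lower call there against cardiomyocytes (adjusted p = 0.0417) was lost without any of the 6 embryonic arrays (adjusted p = 0.0604 to 0.107).

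**Figure D4:**
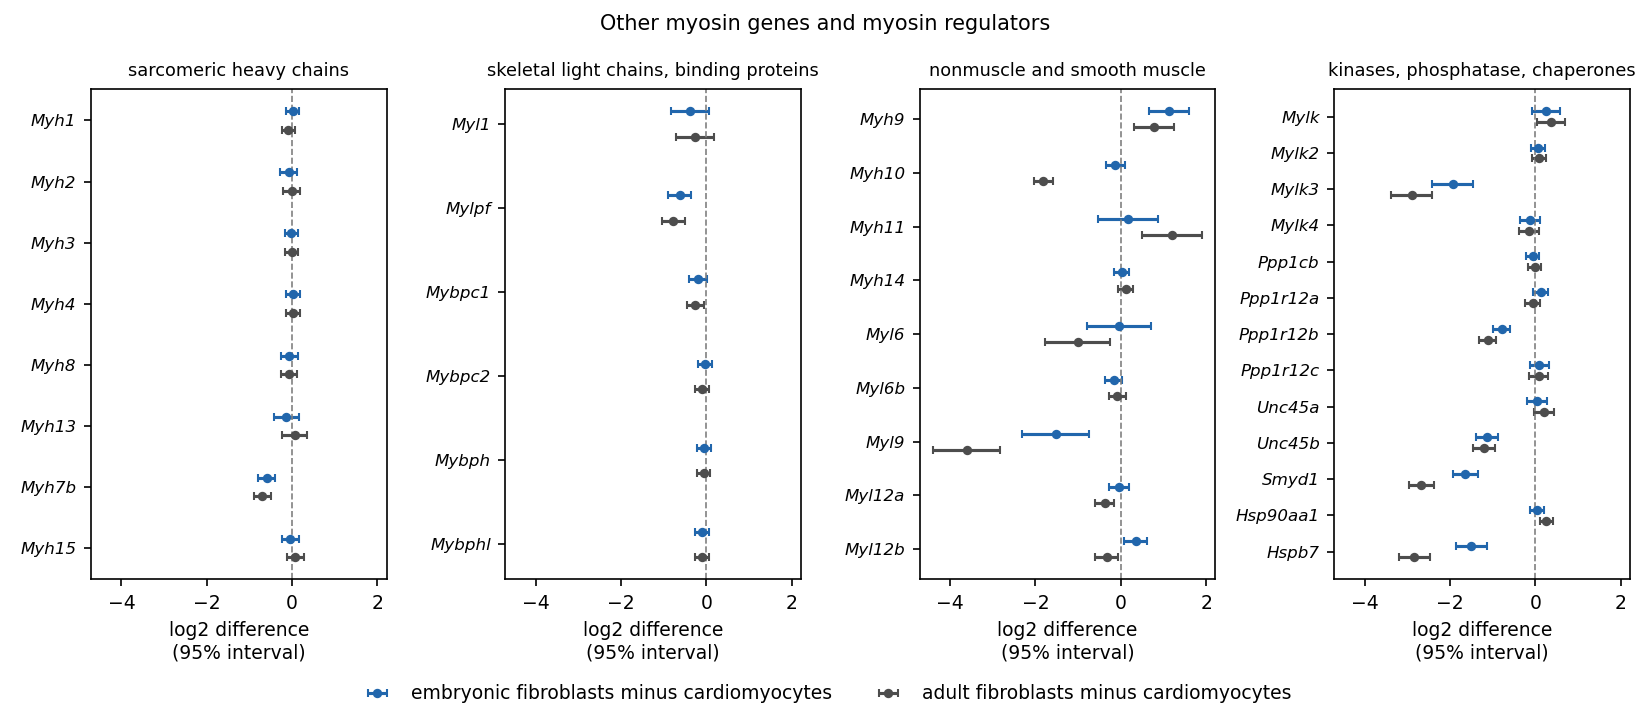
Log2 differences from cardiomyocytes (horizontal axis, with 95% intervals of the limma fit) in embryonic fibroblasts (blue) and adult fibroblasts (grey). The genes are other myosin genes and the listed kinases, phosphatase subunits and chaperones. Most sarcomeric heavy chains, whose group means lay below the median of all probes, lie near 0. Mylk3, Smyd1, Hspb7, Unc45b and Myl9 lie to the left in both groups and Myh9 lies to the right.

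Some regulators and chaperones listed beside the myosin genes were lower in the fibroblasts as well. Of 13 kinases, phosphatase subunits and chaperones, 5 were lower and 0 higher in embryonic fibroblasts than in cardiomyocytes. Of all genes 11.1% were called lower there. In adult fibroblasts 5 were lower, where 18.2% of all genes were, and 1, the chaperone gene Hsp90aa1 (0.26), was higher. On leaving out each array in turn, 2821 to 3846 of 19933 genes were called higher there. Mylk3, the cardiac myosin light chain kinase that phosphorylates the product of Myl2, stood at 11.21, 11.37 and 11.13, at 9.35, 8.79 and 9.79, and at 8.51, 8.22 and 8.31 in the 3 groups. It was 3.81-fold lower in embryonic fibroblasts than in cardiomyocytes (-1.93 ± 0.21, limma adjusted p = 0.000364). Myl2 itself differed by -0.30 there, with a 95% interval from -0.92 to 0.32, and lay near the top of the scale. Mylk3 and Myl2 were not tested against each other. The methyltransferase gene Smyd1 (-1.64 ± 0.13), the small heat shock gene Hspb7 (-1.49 ± 0.16), the myosin chaperone gene Unc45b (-1.13 ± 0.11) and the phosphatase subunit gene Ppp1r12b (-0.79 ± 0.09) were also lower. Unc45b did not pass between embryonic and adult fibroblasts (0.07 ± 0.11, adjusted p = 0.716), where the myosin genes differed by 1.40 to 3.95. Its means in these groups, 7.571 and 7.500, lay below the median of all probes. Unc45b is not shown to be above background there, so the lack of a call does not show equal levels. The Ppp1r12b call between the fibroblast groups (0.33, adjusted p = 0.0351) was lost under 9 of 17 alternatives, among them the mean of its probes (0.12, adjusted p = 0.458).

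The profiles of the members over the 9 arrays were close to each other, with Pearson r of 0.864 (Myl2 and Mybpc3) to 0.997 (Myh7 and Myl7) over the 21 pairs. The arrays fall into 3 groups, so these values describe the group means for the most part. Between 246 genes (for Myl2) and 855 genes (for Mybpc3) had an r over 0.95 with a member. The genes most like Myh7 were Idh2, a mitochondrial dehydrogenase (r = 0.999), the giant sarcomere gene Ttn (0.998), Nebl, which encodes a Z-disc protein (0.998), Gyg and Ect2. Those most like Myl2 were Tnnt2 (0.999), the imprinted gene Mest (0.999), Macroh2a2, Kif23 and Actc1. Idh2 was among the first 5 for 4 of the 7 members. For Mybpc3 the first 5 were Efcab2, Hspb7, Dctpp1, Esco2 and Casq1 (0.995 to 0.997), for Myl3 they began with Ndufa4 (0.998), and for Myh6 with Rps6ka6 (0.997).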

How the data were processed

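RNA of 9 samples was measured on Affymetrix mouse Gene 1.0 ST arrays. The authors deposited 1 value per probe set and array, made by RMA according to the labels (per the labels' list of tools), a method that subtracts background, normalizes between arrays and summarizes probes. Neither its version nor the log base is stated, and the deposited values (2.703 to 14.197) were read as log2. No dates or batches are given in the labels, and nothing beyond the word biological says how replicates were separated, so p-values measure the spread between these samples. Only 3 arrays a group limit the precision.

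Of 28767 probes, 21776 had 1 gene symbol, 1618 several and 5373 none in the platform annotation, and 21686 of the first matched RefSeq by Entrez identifier. For 993 genes with over 1 probe, that with the highest mean was kept, leaving 19933 genes. Group means were fitted with limma 3.58.1 (lmFit and eBayes, R 4.3.3) over all 3 groups, with Benjamini-Hochberg adjustment over all genes and calls at 0.05. The median total degrees of freedom were 9.209. Differences between isoforms on the same array were tested by exact permutation of the 9 arrays over the groups (1680 assignments), two-sided. The script was tested on simulated data. Promoters and microRNAs were read from RefSeq (GRCm38.p6) and searched on both strands. Alternatives were a replicate block, median centring, quantile normalization, dim genes left out, the mean of a gene's probes, fits of 2 groups alone, array weights, a trended and robust prior, and each array left out.

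The members and gene lists were chosen with earlier results of these data known. From each list, up to 4 called genes with the largest difference in each comparison were named, with Myh9, Myh10, Myh11, Tnnt2, Actc1 and Nkx2-5, and for each member the 5 genes with the highest r. Skeletal muscle regulators named as not called, Myl12a and the microRNAs fall outside this rule and were named after their values were seen.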

Additional observations from a re-analysis of the deposited data

How the results depend on the processing

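All 21 results of the members (7 genes in 3 comparisons) kept their direction and their side of the threshold under all 17 alternatives. Among these, the mean of a gene's probes could not change the members' values, as each had 1 probe. Adjusted p of Myl2 between the embryonic groups ranged from 0.0681 to 0.7788. For 68 other named genes, 3295 of 3456 values under alternatives kept their call, 127 lost it, 34 gained one and 0 reversed. With array weights, 3103 genes were called higher and 3362 lower in embryonic fibroblasts than in cardiomyocytes (2054 and 2212 without weights), and 2519 lower in embryonic than adult fibroblasts (1662 without). Genes called lower in embryonic fibroblasts than in cardiomyocytes ranged from 1452 (without embryonic fibroblast replicate 2) to 2830 on leaving out 1 array each. The cause was not tested.

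In Myl7 minus Myl2, the gap between embryonic fibroblasts and cardiomyocytes ranged from 0.757 to 0.95 on leaving out each array (0.882 with all). It was 0.937 with quantile normalization, where the test over the 3 groups passed (exact permutation p = 0.0286). That test also passed without adult fibroblast replicate 2 (exact permutation p = 0.00357). It asks about the 3 groups together, and the gap between a pair of groups was not tested. In Myl4 minus Myl3 the gap between adult fibroblasts and cardiomyocytes ranged from 0.212 to 1.007 (0.684 with all). The test over the 3 groups passed for this pair without adult fibroblast replicate 2 (exact permutation p = 0.0179). Myh6 minus Myh7 had a p of 0.00357 to 0.0214 on leaving out each array.

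With a replicate block, 6, 7 and 7 members were called as before, and 2059 genes were higher and 2147 lower in embryonic fibroblasts than in cardiomyocytes. The deviations of same-numbered arrays from their group means correlated at -0.195 to 0.198 over genes, and the number is taken as a name only. Signal limits the members in adult fibroblasts, where Myh6, Myh7 and Myl7 lay below the median of all probes.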
